A study of Saccharomyces cerevisiae with 6 samples.

Results

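The mitochondrial DNA of yeast carries a small set of protein-coding genes, and 8 of these were followed in aerial and root cells of colony biofilms: COX1 (Q0045), COB (Q0105), COX2 (Q0250), COX3 (Q0275), ATP8 (Q0080), ATP6 (Q0085), OLI1 (Q0130) and VAR1 (Q0140). They were taken by their locus identifiers and make up 8 of the 10239 loci counted and 8 of the 27 mitochondrial ORF identifiers in the table. The cells came from BR-F, a wild diploid strain of Saccharomyces cerevisiae, grown for 3 days at 28 °C on a respiratory medium of 3% glycerol, 1% yeast extract and 0.3% agar. Aerial cells grew above a polycarbonate membrane, and root cells had passed through it into the agar. Neither group carried a deletion or received a treatment. Each group had 3 libraries from independent biological replicates, each pooled from many colonies, and the root samples held traces of agar. RNA was depleted of rRNA without selection on poly(A) tails, and strand-specific libraries were read from both ends over 100 bases.

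Each of the 8 products works in a complex that also holds nuclear-encoded proteins. Cytochrome c oxidase (complex IV) takes its core from COX1, COX2 and COX3, the cytochrome bc1 complex (complex III) takes cytochrome b from COB, the ATP synthase takes membrane subunits from ATP6, ATP8 and OLI1, and the small subunit of the mitochondrial ribosome takes VAR1. Yeast mitochondrial genes are transcribed by the polymerase Rpo41 from promoters of a conserved nonanucleotide, often as polycistronic RNAs, which are cut at tRNAs and at a dodecamer after most reading frames. COX1, ATP8 and ATP6 share a primary transcript, and so do OLI1 and VAR1. Mitochondrial mRNAs of yeast lack poly(A) tails, so that depletion of rRNA keeps them in the library.

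All 8 genes lie on the plus strand of the mitochondrial genome, which has 85779 bases and 82.9% A+T in the RefSeq R64 reference. COX1 spans positions 13818 to 26701 in 8 coding segments and COB spans 36540 to 43647 in 6 segments. The other genes have 1 coding segment each, ATP8 at 27666 to 27812, ATP6 at 28487 to 29266, OLI1 at 46723 to 46953, VAR1 at 48901 to 50097, COX2 at 73758 to 74513 and COX3 at 79213 to 80022. ATP8 starts 964 bases after the end of COX1, ATP6 starts 674 bases after ATP8, and VAR1 starts 1947 bases after OLI1. The sequences are those of R64. How far the mitochondrial DNA of BR-F differs from them was not examined.

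The windows around the promoter and processing motifs show which genes carry these signals, with the motif in capitals. The nonanucleotide ATATAAGTA was searched within 2000 bases before each start codon on the gene's strand, and the nearest match is shown for the 3 genes that have one.
COX1 nonanucleotide: ataagtattgATATAAGTAatagatataat
COB nonanucleotide: aagaaatattATATAAGTAatatataaaaa
OLI1 nonanucleotide: atacacatttATATAAGTAtatatatatat
These matches lie 469, 1662 and 574 bases before the start codons of COX1, COB and OLI1, and OLI1 has 2 matches in its window. The other 5 genes have none. The genome holds 11 matches on the plus and 3 on the minus strand, and 22.0% of all windows of 2000 bases hold a match on the plus strand. ATP8, ATP6 and VAR1 are the downstream genes of the polycistronic transcripts described above. The dodecamer, whose letters are in capitals in the next windows and which has 9 matches on the plus and 2 on the minus strand, was searched within 700 bases after each stop codon on the gene's strand.
COX1 dodecamer: taatataatAATAATATTCTTataaaaata
COB dodecamer: taatactttAATAATATTCTTaaaaataat
COX2 dodecamer: aataattatAATAATATTCTTaaatataat
COX3 dodecamer: tattattatAATAATATTCTTacaaatata
ATP6 dodecamer: cccccttttAATAATATTCTTttatctaat
VAR1 dodecamer: aataaataaAATAATATTCTTaatttttat
It begins 63 to 101 bases after the stop codon of COX1, COB, COX2, COX3 and ATP6, and 580 bases after that of VAR1. ATP8 and OLI1 have no match in this window, and 7.29% of all windows of 700 bases hold one.

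The genes with the highest and the lowest levels differed widely in base content, and 4 coding sequences are shown with G and C in capitals. OLI1, at 66.7% A+T, had the highest level for its length, and ATP8, ATP6 and VAR1 had the lowest levels. The first 150 bases are shown for ATP6 and VAR1 and the whole coding sequence for OLI1 and ATP8.
OLI1: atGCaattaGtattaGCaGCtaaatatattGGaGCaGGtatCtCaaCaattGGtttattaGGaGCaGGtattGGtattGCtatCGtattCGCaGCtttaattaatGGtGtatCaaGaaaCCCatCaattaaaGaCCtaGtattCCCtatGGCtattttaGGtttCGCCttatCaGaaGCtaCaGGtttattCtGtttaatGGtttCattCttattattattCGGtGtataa
ATP8: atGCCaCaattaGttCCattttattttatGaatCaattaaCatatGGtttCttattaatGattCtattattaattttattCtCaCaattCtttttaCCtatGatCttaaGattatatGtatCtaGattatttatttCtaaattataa
ATP6: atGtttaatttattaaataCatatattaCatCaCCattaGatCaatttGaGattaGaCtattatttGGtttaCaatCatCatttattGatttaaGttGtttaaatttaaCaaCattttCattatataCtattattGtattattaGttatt
VAR1: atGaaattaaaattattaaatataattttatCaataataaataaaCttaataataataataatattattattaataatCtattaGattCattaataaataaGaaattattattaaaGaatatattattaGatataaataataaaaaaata
VAR1 was 89.6% A+T, with an unbroken run of 127 A or T bases and 59.8% of its windows of 100 bases at 90% A+T or more. None of the other 7 genes had such a window, and their longest A or T runs had 11 to 22 bases.

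Total counts were 13764726 to 17095539 per library. Levels are given as CPM, counts relative to the scaled library total, with TMM factors of 0.871 to 1.09, as mean ± SD over 3 libraries. Fold changes are log2 ratios of root over aerial cells from edgeR's quasi-likelihood test, with Benjamini-Hochberg adjustment over the 7971 loci tested. A locus was called at an adjusted p under 0.05 and a change of at least 2-fold. Aerial replicates 1 and 2 stood apart for these genes: of the 7 genes tested, aerial replicate 1 had the highest level of 4 and aerial replicate 2 the lowest level of 5. Fold changes are therefore also given without each of these libraries. The share of counts on lncRNA loci was also highest in aerial replicate 1, at 8.18%, and lowest in aerial replicate 2, at 2.52%, with 3.74 to 5.10% in the other 4 libraries. The study reports higher mean shares of mapped reads on lncRNA loci in both cell types, and the reason for this difference was not examined. The part of the lncRNA share in the levels below was not tested. The study's markers of the cell types, chosen by it on these libraries, moved as labelled, with 2 of 2 aerial markers called higher in aerial cells and 4 of 4 root markers higher in root cells. All 11 meiotic genes listed were also called higher in aerial cells, with a median log2 fold change of -2.23. The study states that BR-F colonies sporulate only rarely. Whether the aerial samples held meiotic cells, and what part these had in the results below, was not tested.

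The share of counts on the 8 genes together did not separate the cell types. They held 1.00% of all counts in aerial replicate 1 (95% Wilson interval 0.994 to 1.00), 0.313% in aerial replicate 2 (0.311 to 0.316) and 0.642% in aerial replicate 3 (0.638 to 0.646). Root replicates 1, 2 and 3 had 0.851% (0.847 to 0.856), 0.635% (0.632 to 0.639) and 0.661% (0.657 to 0.665). Both the highest and the lowest share were in aerial cells, and the root libraries lay between them. The means were 0.652 ± 0.343% in aerial and 0.716 ± 0.118% in root cells, a difference of 0.0643 percentage points in an exact permutation test (two-sided p = 0.9, n = 3 per group, where the smallest possible p is 0.1). The difference was 0.238 without aerial replicate 1 and -0.105 without aerial replicate 2. The Wilson intervals cover counting error only. In bulk samples a change in the number of cells rich in mitochondrial RNA and a change of RNA per cell cannot be told apart.

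For single genes, the filter on low counts kept 7 of the 8, and 0 of these 7 were called, against 20.0% of all loci tested (10.8% called upwards in root cells and 9.20% in aerial cells). At an unadjusted p under 0.05, 1 gene passed, ATP6, against 43.1% of all loci, and DESeq2 called the same gene. Of the 7, 3 had a fitted value above 0 and 4 below, with a median log2 fold change of -0.04, beside -0.03 over all loci. The CPM of the groups overlapped for all 7 genes, whereas 48.5% of all loci had groups that did not overlap.

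**Figure D1:**
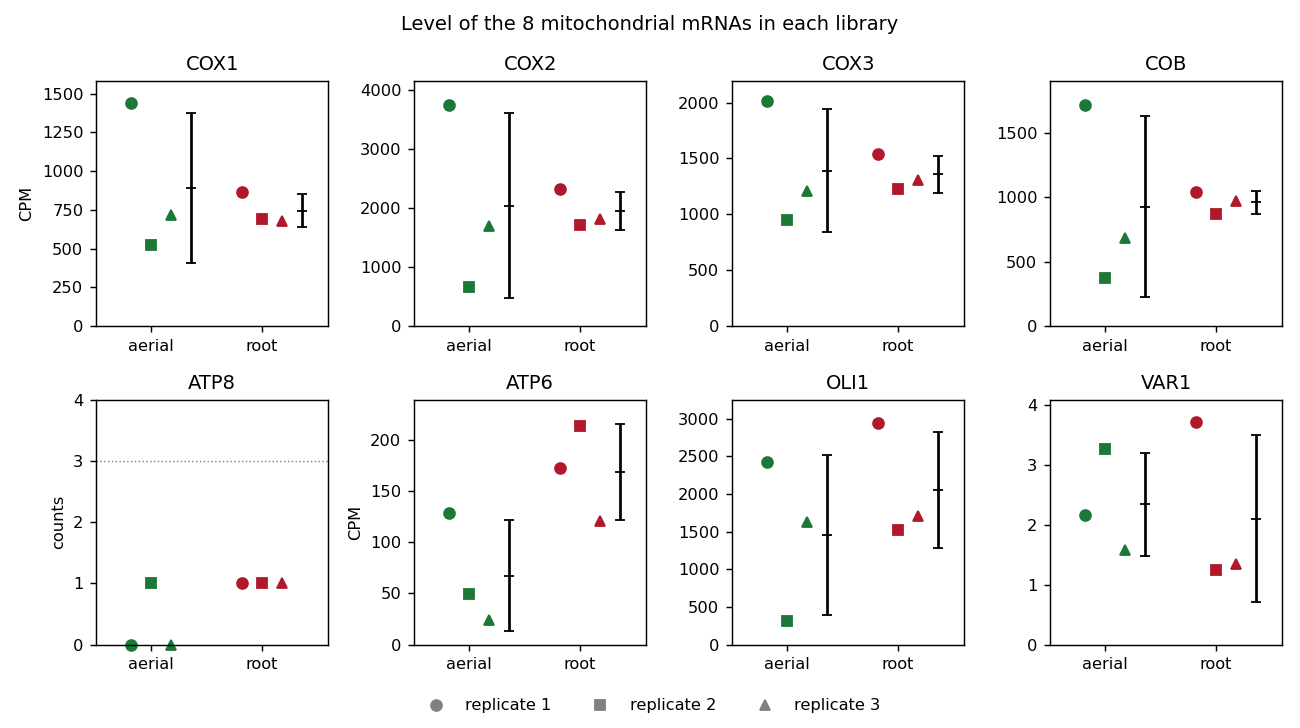
Level of each mRNA in the 3 aerial (green) and 3 root (red) libraries, in CPM on axes from 0, with the mean and SD beside the points, and for ATP8 the raw counts with a dotted line at the floor of 3 counts. Aerial replicate 1 (circle) was highest for COX1, COX2, COX3 and COB, aerial replicate 2 (square) was lowest for these 4 and OLI1, and aerial replicates 2 and 3 lay below all root libraries for COX2, COX3, COB and ATP6.

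Among the genes of complex IV, COX1 encodes the subunit with the hemes and copper at which oxygen is reduced. Its level was 1440, 521 and 715 CPM in aerial replicates 1, 2 and 3 and 868, 691 and 676 CPM in root replicates 1, 2 and 3. The root values lay inside the aerial range. The log2 fold change was -0.26 (SE 0.36, 95% interval -1.08 to 0.56, adjusted p = 0.616 by edgeR), and it was 0.28 without aerial replicate 1 and -0.53 without aerial replicate 2.

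COX2 encodes the subunit that takes electrons from cytochrome c through its copper center. Its level was 3757, 669 and 1693 CPM in the aerial libraries and 2322, 1707 and 1822 CPM in the root libraries. Aerial replicate 1 was 5.61 times aerial replicate 2, while the highest root library was 1.36 times the lowest. The log2 fold change was -0.06 (SE 0.52, 95% interval -1.24 to 1.12, edgeR adjusted p = 0.938), and it was 0.73 and -0.48 without aerial replicates 1 and 2.

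COX3 encodes the remaining mitochondrial subunit of the oxidase core. Aerial levels were 2010, 950 and 1212 CPM and root levels were 1539, 1224 and 1307 CPM. It varied least between aerial libraries among the genes of this complex, with a coefficient of variation of 39.7%, and its log2 fold change was -0.04 (SE 0.31, 95% interval -0.74 to 0.67, edgeR adjusted p = 0.943). It was 0.33 and -0.25 without aerial replicates 1 and 2. The intervals of COX1, COB and COX2 include a 2-fold change in at least 1 direction, and that of COX3 includes none. In COX2 and COX3, aerial replicates 2 and 3 lay below all 3 root libraries and aerial replicate 1 above them.

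COB encodes cytochrome b, the subunit of complex III that binds quinol and quinone. Aerial levels were 1723, 373 and 689 CPM, and root levels were 1046, 869 and 971 CPM. The means, 928 ± 706 and 962 ± 89.0 CPM, were close while the aerial spread was wide, with a coefficient of variation of 76.1% against 9.25%. The log2 fold change was 0.05 (SE 0.47, 95% interval -1.02 to 1.12, edgeR adjusted p = 0.945). Here too aerial replicates 2 and 3 lay below all root libraries and aerial replicate 1 above them. Without aerial replicate 1 the log2 fold change was 0.86 with an adjusted p of 0.0492, under the 2-fold limit, and without aerial replicate 2 it was -0.33.

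The genes of the ATP synthase had the largest fitted differences. ATP6 encodes subunit a of the membrane part, which forms the path of protons at the rotor. It had 1541, 914 and 383 counts in aerial and 2599, 3597 and 1888 counts in root replicates 1, 2 and 3, or 129, 49.1 and 24.2 CPM against 172, 214 and 121 CPM. Aerial replicate 1 lay just above root replicate 3, and the other 2 aerial libraries lay below all root libraries. The level was 67.3 ± 54.6 CPM in aerial and 169 ± 46.9 CPM in root cells, 2.52-fold higher in root, with a log2 fold change of 1.33 (SE 0.52, 95% interval 0.16 to 2.50) that did not pass the threshold after adjustment (edgeR adjusted p = 0.0798). Without aerial replicate 1 it was 2.21 with an adjusted p of 0.00318 (20.5% of loci called), and without aerial replicate 2 it was 1.15 (edgeR adjusted p = 0.159). Over 14 alternatives the adjusted p ranged from 0.00318 to 0.191 and the log2 fold change from 0.93 to 2.21. DESeq2 called it (log2 fold change 1.33, adjusted p = 0.0160), where 19.4% of loci were called. The study, which also used DESeq2 but with a cutoff on the unadjusted p, lists this locus among the respiration genes higher in root cells.

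OLI1 encodes subunit c, the small proteolipid that forms the ring of the rotor. Aerial levels were 2424, 311 and 1629 CPM and root levels were 2939, 1525 and 1708 CPM. Aerial replicate 2 was far below the other 5 libraries. The log2 fold change was 0.50 (SE 0.61, 95% interval -0.88 to 1.88, edgeR adjusted p = 0.565), and it was 1.09 and 0.02 without aerial replicates 1 and 2.

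ATP8, a small membrane subunit next to subunit a, had almost no counts. It had 0, 1 and 0 counts in the aerial libraries and 1 count in each root library, at or under the floor of 3 counts, and it was not tested. In aerial replicate 1, 3 counts would be a share of 2.18e-05% of all counts. The coding sequence printed above has 147 bases and lies in the stretch between COX1 and ATP6, both of which were counted in every library. ATP6, from the same primary transcript, had 383 to 3597 counts per library over 780 bases. The counts of ATP8 were thus under the floor, which does not show that its RNA was absent. Whether its reads were lost in library preparation, mapping or counting was not tested.

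VAR1, the ribosomal protein, had few counts, 26, 61 and 25 in aerial and 56, 21 and 21 in root replicates 1, 2 and 3. These were 2.17, 3.28 and 1.58 CPM and 3.71, 1.25 and 1.34 CPM. The highest and the lowest library were both root libraries. The log2 fold change was -0.18 (SE 0.47, 95% interval -1.23 to 0.88, edgeR adjusted p = 0.802), and it was -0.23 and 0.17 without aerial replicates 1 and 2. Without root replicate 1, the highest library, it was -0.86 (edgeR adjusted p = 0.194).

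**Figure D2:**
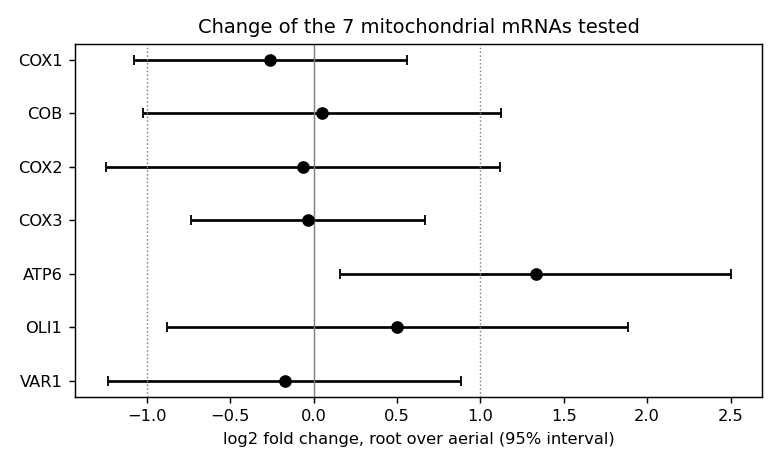
Fitted log2 fold change of root over aerial cells (points) with 95% intervals (lines) for the 7 genes tested, with dotted lines at a 2-fold change. The interval of ATP6, 0.16 to 2.50, lies above 0, and those of the other 6 genes include 0.

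The spread between libraries was itself unequal between the groups. The coefficient of variation of CPM was larger in aerial than in root libraries for 6 of the 7 genes tested, from 39.7% for COX3 to 81.1% for ATP6 in aerial cells, where root cells had 9.25 to 37.4%. VAR1, with the fewest counts, had 36.8% against 66.4%. The same comparison was not made over all loci, so the wider aerial spread is not shown to be particular to these genes. Over the 6 libraries COX1, COB, COX2, COX3 and OLI1 moved together, with median Pearson correlations of log2 CPM with the other genes of 0.804, 0.890, 0.918, 0.883 and 0.758. The median was 0.456 for ATP6 and -0.11 for VAR1. These values are a description of 6 libraries that share their depth and scaling, with no test. By the same measure, the 5 nuclear protein-coding loci most like the summed level of the 8 genes were MAL32 (r = 0.996), a maltase with close copies in the genome, OPI3 (0.991), an enzyme of phosphatidylcholine synthesis, HMF1 (0.988) and the vacuolar amino acid transporters AVT6 (0.987) and AVT3 (0.987). They were found among 5737 loci, of which 85 had r of at least 0.9, and none of the 5 was called.

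Compared for the length over which reads can be assigned to a single gene, the levels spanned several orders of magnitude. The mean over 6 libraries, as CPM per kilobase of coding bases that no other annotated ORF shares, was 7601 for OLI1, 2707 for COX2, 2351 for COB, 1696 for COX3 and 1293 for COX1. It was 152 for ATP6 and 1.86 for VAR1, and the 0 or 1 counts of ATP8 came to 0.276, under its floor. OLI1 was above COX2 in 6 of 6 libraries, although the ranges over libraries, 1346 to 12721 for OLI1 and 908 to 5098 for COX2, overlapped. COX2 was above COB, and COB above COX3, in 5 of 6 libraries, so that these neighbours did not differ beyond their spread. COX1, ATP6 and VAR1 followed each other in this order in 6 of 6 libraries, and their ranges did not overlap. The floor of 3 counts for ATP8 was 1.10 to 1.70 on this scale, and VAR1 lay above it in 4 of 6 libraries, so that the order of VAR1 and ATP8 could not be determined.

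The scale bears on COX1 and COB, since 972 of the 1605 coding bases of COX1 and 756 of the 1158 of COB are annotated as shared with ORFs that continue into their introns. Per kilobase of all coding bases, COX1 was at 510 and COB at 816, and COX3 at 1696 moved above COB in 6 of 6 libraries. How reads in shared bases were counted is not given in the sources used here. AI1, an intron ORF of COX1 with 169 shared coding bases, had 9 to 35 counts per library, where COX1 had 9704 to 17256. Few reads in shared bases can thus have been counted for AI1, and whether they were counted for COX1 was not examined. A BLAST search of nuclear DNA of R64 found 2 matches to the coding sequence of COX1, the longer of 43 bases. It found none for the other 7 genes, although such a search can miss short or diverged matches.

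Across the 8 genes, the level per kilobase of unshared bases on the log2 scale fell with A+T content (Pearson r = -0.87, Spearman rho = -0.76), with ATP8 at a level under its floor. Without ATP8 the values over 7 genes were -0.97 and -0.68. Over the 19 mitochondrial ORFs with an annotation in R64, these 8 included, r was -0.61, and over the 11 that are not among the 8 it was 0.31. The points are genes of 1 genome that share libraries and depth, and the values are given as a description with no test. The genes with the least A+T, OLI1 at 66.7%, COX3 at 70% and COX1 at 70.1%, were among the 5 with high levels, and the 3 with the most, VAR1, ATP8 and ATP6, had the lowest.

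**Figure D3:**
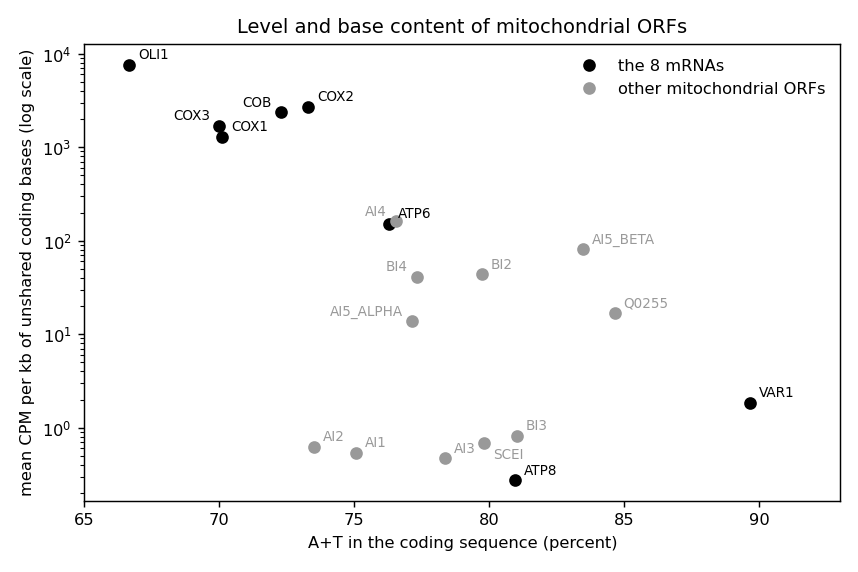
Mean level over 6 libraries, in CPM per kilobase of unshared coding bases on a log axis, against the A+T content of the coding sequence in percent, for the 8 mRNAs (black) and 11 other mitochondrial ORFs (grey). The black points fall from OLI1 at 66.7% A+T and 7601 to VAR1 at 89.6% and 1.86, while the grey points gave an r of 0.31.

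The composition of the counts among the 8 genes does not depend on the scaling between mitochondrial and nuclear RNA. COX1 took 12.5, 18.1 and 12.0% of these counts in aerial and 9.77, 11.1 and 10.2% in root replicates 1, 2 and 3, a share of 14.2 ± 3.39% against 10.4 ± 0.674%. ATP6 took 1.12, 1.71 and 0.406% against 1.94, 3.44 and 1.83%, a share of 1.08 ± 0.651% against 2.40 ± 0.90%. For both genes the groups did not overlap, COX1 lower and ATP6 higher in root cells, as was so for the CPM of 48.5% of all loci. The exact permutation test gave the smallest p that 3 against 3 libraries allow, 0.1 (two-sided, 0.4 after Benjamini-Hochberg adjustment over 8 genes). In CPM the groups of both genes overlapped, and a lower share of a gene can follow from a higher share of another. The shares of the other genes overlapped, with exact p-values of 0.3 to 0.9. OLI1, with the widest change in mean share, took 21.1, 10.8 and 27.3% in aerial and 33.1, 24.5 and 25.9% in root replicates. Per kilobase of coding sequence, the groups of COX1 still did not overlap (p = 0.1), whereas those of ATP6 did (exact p = 0.3).

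The ratio of ATP6 to COX1, which begin as parts of a single primary transcript, uses the same counts as the shares above. Since the groups overlapped for neither share and the shares moved in opposite directions, the ratio had to separate the cell types. It is no further evidence. ATP6 counts were 8.93, 9.42 and 3.38% of COX1 counts in aerial and 19.9, 31.0 and 17.9% in root replicates 1, 2 and 3. Every root library was above every aerial library. The mean log2 ratio was 1.76 higher in root cells, with the smallest exact permutation p possible here (0.1, two-sided, 0.2 after adjustment over 2 ratios), and it was 1.98 without aerial replicate 1 and 2.02 without aerial replicate 2. VAR1 counts were 0.0895, 1.05 and 0.0970% of OLI1 counts in aerial and 0.126, 0.0820 and 0.0786% in root replicates. Aerial replicate 2 lay far above the other 5 libraries, and the log2 difference of -1.16 (exact p = 0.5) became 0.00 without it.

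**Figure D4:**
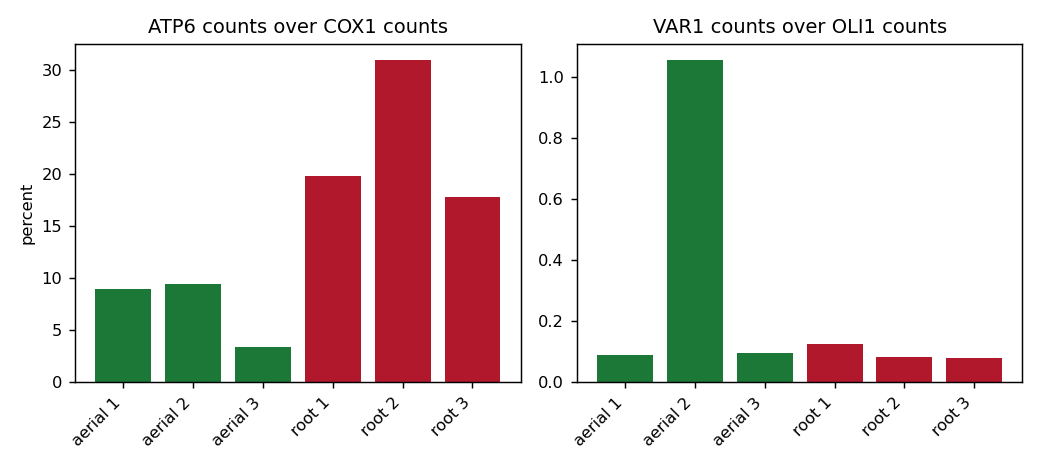
Counts of the downstream gene as a percentage of those of the upstream gene of the same primary transcript, as bars for each aerial (green) and root (red) library. ATP6 over COX1 was 3.38 to 9.42% in aerial and 17.9 to 31.0% in root libraries, and VAR1 over OLI1 was high only in aerial replicate 2, at 1.05%.

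The introns of COX1 and COB hold reading frames of their own, most of which are read as fusions with the exons before them and encode maturases and endonucleases. AI5_BETA is annotated without bases shared with COX1 or another ORF. Of the 6 intron ORFs of COX1, AI4 had 1327 to 3344 counts per library, AI5_BETA 1095 to 1972 and AI5_ALPHA 103 to 452, while AI1, AI2 and AI3 had 5 to 35. Of those of COB, BI2 had 380 to 1045 counts, BI4 525 to 922 and BI3 3 to 24. None of the 8 intron ORFs tested was called by edgeR or DESeq2 (20.0 and 19.4% of all loci), and 0 had an unadjusted p under 0.05 (43.1% of all loci). The largest differences were those of AI5_ALPHA, with a log2 fold change of -0.87 (edgeR adjusted p = 0.128), and BI2, with -0.63 (edgeR adjusted p = 0.143). The summed intron ORFs of COX1 were 0.248, 0.549 and 0.232 of the COX1 counts in aerial and 0.282, 0.418 and 0.297 in root replicates. For COB the values were 0.0683, 0.276 and 0.0871 against 0.0818, 0.0948 and 0.0679. Aerial replicate 2, with the lowest level of both mRNAs, had the highest ratio for both genes, and the groups overlapped (log2 differences of 0.05 and -0.55, exact p = 1 and 0.6). No other mitochondrial ORF was called.

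Since each complex joins products of both genomes, the summed CPM of its mitochondrial mRNAs was set against that of its nuclear mRNAs in each library. For complex IV the mitochondrial sum was 5.94, 2.48 and 2.10 times the nuclear sum in aerial and 2.31, 2.98 and 2.89 times in root replicates 1, 2 and 3. For complex III it was 0.813, 0.188 and 0.283 against 0.376, 0.369 and 0.450, and for the ATP synthase 0.643, 0.104 and 0.432 against 0.583, 0.364 and 0.439. The groups overlapped for all of these and for the small ribosomal subunit. The log2 differences between root and aerial cells were -0.21 for complex IV, 0.18 for complex III, 0.56 for the ATP synthase and -0.51 for the small ribosomal subunit (exact permutation p = 0.9, 0.8, 0.8 and 0.4, 0.9 for each after adjustment over 4). Without aerial replicate 1 the first became 0.25, and without aerial replicate 2 those of complex III and the ATP synthase became -0.27 and -0.22.

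**Figure D5:**
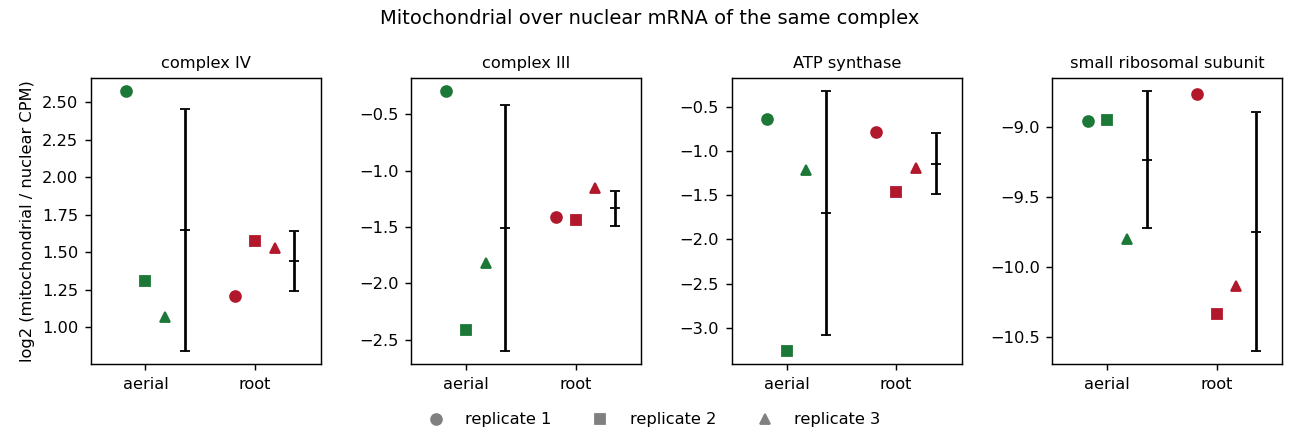
Log2 ratio of the summed CPM of mitochondrial to nuclear mRNAs of 4 complexes in each aerial (green) and root (red) library, with the mean and SD beside the points. The groups overlap in every panel, and the aerial libraries spread further than the root libraries for complexes III, IV and the ATP synthase.

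The nuclear genes of the same complexes moved little. None of 10 nuclear genes of complex IV, 9 of complex III, 14 of the ATP synthase and 32 of the small ribosomal subunit was called by edgeR or by DESeq2, against 20.0% of all loci by edgeR, and 1, 2, 2 and 6 of them had an unadjusted p under 0.05 (43.1% of all loci). The median log2 fold changes were 0.26, 0.23, 0.32 and 0.21, beside -0.03 over all loci, and 8 of 10, 7 of 9, 11 of 14 and 26 of 32 had fitted values above 0. Without the 2-fold limit, 1 of 14 ATP synthase and 6 of 32 ribosomal genes passed upwards in root cells. No nuclear gene of these complexes passed downwards. Of all 7971 loci tested, 1269 passed upwards and 1246 downwards (31.6% in both directions together). The share of ribosomal genes passing upwards was thus not below that of all loci. The summed nuclear mRNAs overlapped between the groups for complex IV, complex III and the small ribosomal subunit (exact permutation p = 0.5, 0.4 and 0.4). Those of the ATP synthase were 3970, 3457 and 3823 CPM in aerial and 5333, 4784 and 4167 CPM in root replicates. These did not overlap (exact p = 0.1, the smallest possible), as was so for the CPM of 48.5% of single loci, while the summed mitochondrial mRNAs of this complex did.

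Nuclear factors that act on mitochondrial DNA and RNA are read here against the 20.0% of all loci called by edgeR (10.8% higher in root, 9.20% in aerial), the 19.4% called by DESeq2 and the 43.1% with an unadjusted p under 0.05. None of 19 translational activators, most of which act on single mitochondrial mRNAs, and none of 11 splicing factors was called by edgeR or DESeq2. In each list 3 had an unadjusted p under 0.05, with median log2 fold changes of -0.09 and -0.16. Of 10 genes of transcription and RNA decay, 1 was called, NUC1, a mitochondrial nuclease, at 36.8 ± 16.9 CPM in aerial and 76.3 ± 6.10 CPM in root cells (log2 fold change 1.05, edgeR adjusted p = 0.0268). Of 14 genes of mitochondrial DNA maintenance, 2 were called higher in root and 1 in aerial cells, a share near that of all loci. The one in aerial cells was ABF2, whose product packages mitochondrial DNA. Its level was 235, 393 and 460 CPM in aerial and 189, 160 and 157 CPM in root replicates 1, 2 and 3, every aerial library above every root library (log2 fold change -1.11, SE 0.26, edgeR adjusted p = 0.0133). YHM2, a mitochondrial carrier of citrate and oxoglutarate that also binds mitochondrial DNA, rose in root cells from 68.0 ± 16.3 to 258 ± 23.2 CPM (log2 fold change 1.93, SE 0.23, edgeR adjusted p = 0.000934).

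Of 39 assembly factors, 1 was called higher in root and 2 in aerial cells, where 10.8 and 9.20% of all loci were. OXA1, which inserts mitochondrially made proteins into the inner membrane, was at 31.8, 36.6 and 35.2 CPM in aerial and 91.1, 90.5 and 76.1 CPM in root replicates 1, 2 and 3. The spread within each group was small beside this difference (log2 fold change 1.31, SE 0.17, edgeR adjusted p = 0.00114). COA4, an assembly factor of cytochrome c oxidase, fell from 7.33 ± 2.75 to 3.04 ± 0.980 CPM in root cells (log2 fold change -1.27, SE 0.34, edgeR adjusted p = 0.0211). Of 16 genes of import and chaperones, 2 were called, both higher in root cells (10.8% of all loci), with the larger change in TIM23, the channel of the inner membrane (log2 fold change 1.03, SE 0.21, edgeR adjusted p = 0.00741).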

How the data were processed

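RNA was measured in 3 aerial and 3 root libraries. The authors mapped reads to the R64 (SacCer3) reference with TopHat2 2.0.14 and assigned them to loci by strand with featureCounts. The table deposited by the authors holds raw counts. How reads on several loci were counted is not given in the sources used here. 1 line naming no locus was left out, and all value columns belonged to the 6 samples.

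Counts were filtered by filterByExpr, scaled by TMM and fitted in R 4.3.3 with edgeR 4.0.16 (quasi-likelihood test, Benjamini-Hochberg adjustment) without covariates, limma 3.58.1 being loaded with it. DESeq2 1.42.0 was an alternative. Single values were compared by exact permutation tests (scipy 1.17.1, Python 3.11.15). Sequences were read from RefSeq R64 and nuclear matches found with BLAST 2.17.0. On simulated data edgeR called 181 of 200 loci changed 3-fold and 3 unchanged ones of 7971 loci. All loci were simulated at the common dispersion of 0.0574. The simulation therefore does not give the chance of a call for genes with a wider spread, such as the mitochondrial genes in aerial cells. The Wilson intervals of the shares and the floor of 3 counts cover counting error only. The intervals of the log2 fold changes came from the edgeR fit and include the spread between libraries. No ratio of ATP8 to ATP6 was formed, as ATP8 had 0 counts in 2 libraries.

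The members and gene lists were chosen with earlier results of these data known. Named were all 8 genes, ORFs in introns of COX1 or COB, the called locus with the largest change per direction in each nuclear list, and the 5 loci most like the summed level. The alternatives were other normalizations, other filters on low counts, DESeq2, no fold limit, other denominators and lengths, mean log2 CPM, replicate number as a block, and each library left out.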

Additional observations from a re-analysis of the deposited data

How the results depend on the processing

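Conclusions on single genes were limited by the spread between aerial libraries and, for ATP8 and VAR1, by low counts. The number of genes called was 0 in every setting except DESeq2, the replicate block and the omission of aerial replicate 1, each of which gave 1, ATP6 (range 0 to 1 with each library left out). Correlations of deviations of libraries with the same replicate number were -0.14, 0.14 and -0.04, and not every library correlated best with its own number. With 3 libraries per group these values cannot exclude a pairing of the samples by number, and the sample labels do not state one. With the number as a block, 21.0% of loci were called, against 20.0% without it. ATP6 then had a log2 fold change of 1.63 (edgeR adjusted p = 0.00621), while COX2 turned to 0.25 and COX3 to 0.030, and the share of counts gave an exact sign-flip p of 0.75. COB turned to -0.032 with upper quartile normalization, and its share among the 8 genes to -0.85 percentage points per kilobase of coding sequence. With each library left out in turn, log2 fold changes ranged from -0.53 to 0.28 for COX1, -0.33 to 0.86 for COB, -0.48 to 0.73 for COX2, -0.25 to 0.33 for COX3, 0.93 to 2.21 for ATP6, 0.02 to 1.09 for OLI1 and -0.86 to 0.17 for VAR1. The share of all counts differed by -0.105 to 0.238 percentage points. Shares among the 8 genes differed by -4.97 to -1.90 for COX1, -0.521 to 1.21 for COB, -3.52 to 1.21 for COX2, -7.76 to -0.00276 for COX3 (the latter without aerial replicate 2, against -4.70 with all libraries), 0.805 to 1.64 for ATP6, 3.58 to 11.8 for OLI1 and -0.0428 to 0.00470 for VAR1. The log2 difference of ATP6 over COX1 ranged from 1.28 to 2.02 and that of VAR1 over OLI1 from -1.78 to 0.00345. Those of mitochondrial over nuclear mRNA ranged from -0.50 to 0.25 for complex IV, -0.27 to 0.78 for complex III, -0.22 to 1.09 for the ATP synthase and -1.0 to -0.22 for the small ribosomal subunit. Those of intron ORFs over their host ranged from -0.18 to 0.45 for COX1 and -0.94 to 0.066 for COB. The cause of these shifts was not tested. The relation of level and A+T content without ATP8 was added after seeing the data. All alternatives listed were run, except that no ratio with ATP8 could be formed.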
